A study of Mus musculus with 10 samples.

Results

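The genes described here are the tubulins, which form the wall of the microtubule, and the kinesins, the motors and depolymerases that act on it. They were all genes of mouse whose symbol starts with *Tuba*, *Tubb*, *Tubd*, *Tube* or *Tubg*, or with *Kif*, followed by a digit. This gave 57 genes, 19 tubulins and 38 kinesins, of 20142 genes in 2 tables of RNA-seq values. *Tubb1* was listed in the adult table only, so 56 of the 57 were in the day 7 table. *Kif* genes of the C family, *Cenpe* and *Tubal3* have other symbols and were described only beside them. The rule itself uses only gene names, but it was set with earlier results of these data known.

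The study asked what the loss of *Rnf20* in Sertoli cells does to the testis. RNF20 is an E3 ubiquitin ligase of histone H2B, and Sertoli cells are the somatic cells that nurse germ cells in the seminiferous tubule. In *Amh-Rnf20*-/- mice, Cre driven by the *Amh* promoter, which is active in Sertoli cells, removes the floxed exons of *Rnf20*, so germ cells and other somatic cells keep the gene. At day 7 after birth, primary Sertoli cells that had been isolated, cultured and passaged were sequenced, 2 samples from *Rnf20*Flox/Flox mice, called WT in the labels and controls here, and 2 from *Amh-Rnf20*-/- mice. Whole adult testis was sequenced in 3 samples labelled WT and 3 labelled *Rnf20* conditional knockout, with no further detail on the genotype or exact age of either group. The labels do not say whether samples were single mice or pools, so p-values measure the spread between these samples.

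Levels are given as FPKM, fragment counts scaled to transcript length and library size. Fold changes are log2 values of knockout over control from edgeR on counts scaled by TMM, with the standard error (SE) and a p-value adjusted over all genes tested. A gene was past the thresholds, and is said to have risen or fallen, when its log2 fold change was over 1 in size with an adjusted p under 0.001, the thresholds of the study. Depth was 17477268 to 17705347 counts per sample at day 7 and 15431912 to 16574144 in adult testis. *Rnf20* itself was at 16.64 and 16.01 FPKM in the day 7 controls and at 10.25 and 12.58 FPKM in the knockouts. In adult testis it was at 4.89, 3.32 and 4.09 FPKM in the controls and at 9.16, 5.76 and 9.85 FPKM in the samples labelled knockout. Whole-testis *Rnf20* FPKM was thus not lower in them, and they are called labelled knockouts below. Germ cells and other somatic cells keep the gene, so this level does not test the deletion in Sertoli cells. By Western blot, the paper reports less RNF20 protein in adult *Amh-Rnf20*-/- testes. Scaling mattered in adult testis, where the genes tested had a median log2 fold change of 0.01 with TMM, 0.87 with total counts and -0.19 with median-ratio factors. FPKM values follow the total-count scale, so a gene with equal FPKM in both adult groups has a negative fold change on the TMM scale.

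Microtubules are polymers of alpha- and beta-tubulin dimers, and gamma-tubulin starts their growth. Male germ cells use them in mitotic and meiotic spindles, in the manchette that shapes the spermatid head and in the axoneme of the sperm tail. Sertoli cells hold long bundles of microtubules along which spermatids are moved. Most kinesins walk along microtubules with cargo, some cross-link or slide them in the spindle, and kinesins of the Kif2 group remove tubulin from their ends.

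In adult testis the tubulins and kinesins were among the genes lower in the labelled knockouts more often than among those higher. Of 51 that could be tested, 15 fell, which is 29.4% beside 23.7% of all 15919 genes tested, and 4 rose, which is 7.84% beside 23.0% of all genes. At an adjusted p under 0.05 with any fold change, 34 were lower, 66.7% beside 40.6% of all genes, and 12 were higher, 23.5% beside 40.9%. The median log2 fold change of the 51 was -2.29. Values outside the range of the controls were common in adult testis. On FPKM, labelled knockouts 1, 2 and 3 lay below every control for 38.5%, 35.8% and 34.0% of all genes tested. They lay above every control for 57.1%, 59.6% and 61.3%. The share of all genes with adult groups that do not overlap was not counted, so such statements below are to be read beside these shares. The number past the thresholds was 19 with all samples, 37 without labelled knockout 1 and between 8 and 11 when any 1 of the other 5 samples was left out. With total-count scaling 9 rose, 17.6% beside 36.7% of all genes, and 11 fell, 21.6% beside 14.1%. With TMM and all samples, the 4 that rose were *Tuba1b*, *Tubb5*, *Kif1c* and *Kif5b*. The 15 that fell were *Tuba4a*, *Tuba8*, *Tubb4b*, *Tubd1*, *Kif2a*, *Kif2c*, *Kif3a*, *Kif3b*, *Kif5c*, *Kif9*, *Kif17*, *Kif19a*, *Kif20b*, *Kif21b* and *Kif27*. Below the filter on low values lay 6 members, *Tubb1*, *Tubb4a*, *Kif12*, *Kif26a*, *Kif26b* and *Kif28*, at no more than 0.46 FPKM in any adult sample.

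The cell types in the adult samples differed as well. The summed FPKM of 10 spermatid markers was between 124800 and 193500 in the controls and at 4.34, 93.62 and 51.96 in labelled knockouts 1, 2 and 3, and all 10 were lower at an adjusted p under 0.05. The sum of 10 spermatocyte markers was between 5188 and 5420 in the controls and at 6.5, 284.1 and 382.2 in the labelled knockouts. All 6 Leydig cell, all 6 stromal and all 6 macrophage markers rose. The sum of 12 Sertoli cell markers was between 586.7 and 759.4 in the controls and at 2736, 5065 and 5831 in the labelled knockouts, with 1 of the 12 risen, 1 fallen, and 5 higher and 1 lower at an adjusted p under 0.05. Labelled knockout 1 stood apart from the other 2 for *Dmrt1*, a transcription factor of Sertoli cells and spermatogonia. It was at 0.57 FPKM in that sample, 17.27 and 24.91 in the others and between 6.07 and 6.62 in the controls. *Dmrt1* was picked from the 12 Sertoli cell markers after its values were seen. Their sum in the same sample, 2736 FPKM, was above every control. In bulk tissue, fewer cells of a type and less RNA per cell cannot be told apart, and the part of cell composition in the tubulin and kinesin values was not tested.

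Among alpha-tubulins, the adult controls were dominated by the testis isotypes *Tuba3a* and *Tuba3b* and by *Tuba8*, and the labelled knockouts by the broadly expressed *Tuba1b* and *Tuba1a*. *Tuba8* was at 343.2, 358.3 and 350.6 FPKM in the controls and at 0.52, 1.73 and 0.75 FPKM in the labelled knockouts, a log2 fold change of -9.31 (SE 0.57, edgeR adjusted p 4.37e-05), the largest size of any of the 51. *Tuba3a* was at 929.5, 877.9 and 931.7 FPKM in the controls and at 0.39, 79.01 and 127 FPKM in labelled knockouts 1 to 3. *Tuba3b* was at 922.6, 939.2 and 873.5 FPKM in the controls and at 0.19, 82.84 and 115.9 FPKM in the labelled knockouts. The groups did not overlap for either gene, and labelled knockout 1 held 8 counts of *Tuba3a* and 4 of *Tuba3b*, where the other labelled knockouts held between 1656 and 2546. Because of that spread neither gene was past the thresholds, with log2 fold changes of -4.63 (SE 1.60, edgeR adjusted p 0.0343) and -4.68 (SE 1.69, adjusted p 0.0401). Without labelled knockout 1 both were, at -3.92 and -3.97.

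*Tuba3a* (chr6:125278270-125286081) and *Tuba3b* (chr6:145615963-145621477, both GRCm38) encode proteins of 450 residues that are 100% identical by the GENCODE M21 coding sequences, which are themselves 97.0% identical, so reads could be split between them by the counting. Summed as 1 feature they gave the same direction and the same call. The next sequences show the 150 bases before the start of both genes and of *Tubb4b*, the most abundant beta-tubulin of the adult controls, from RefSeq promoters on GRCm38.p6, 5′ to 3′ on the gene's strand, with CCAAT, or ATTGG on the other strand, in capitals. They are shown because these 3 genes carried most tubulin transcript of the adult controls.
Tuba3a, chr6:125286082-125286231, minus strand: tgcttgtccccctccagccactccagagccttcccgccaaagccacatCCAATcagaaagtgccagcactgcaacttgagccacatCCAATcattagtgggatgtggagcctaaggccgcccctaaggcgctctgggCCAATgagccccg
Tuba3b, chr6:145615813-145615962, plus strand: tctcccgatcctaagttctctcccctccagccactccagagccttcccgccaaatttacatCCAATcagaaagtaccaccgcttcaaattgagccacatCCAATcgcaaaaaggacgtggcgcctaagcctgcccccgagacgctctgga
Tubb4b, chr2:25224703-25224852, minus strand: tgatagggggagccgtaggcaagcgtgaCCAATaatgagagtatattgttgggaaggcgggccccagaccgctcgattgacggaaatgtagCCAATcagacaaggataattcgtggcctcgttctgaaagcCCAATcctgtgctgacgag
These stretches hold 3, 2 and 3 matches. CCAAT is the core of a common promoter element. Over the full promoters of 300 bases, 250 before and 50 after the start, CCAAT was in 37.9% of 27025 genes, in 4 of 7 alpha-tubulins and in 4 of 6 beta-tubulins with an entry.

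*Tuba4a*, an isotype without an encoded terminal tyrosine, was at 66.38, 65.97 and 70.09 FPKM in the controls and fell to 28.93, 16.29 and 17.85 FPKM, with a log2 fold change of -2.99 (SE 0.29). *Tuba1b* was at 68.74, 57.85 and 57.19 FPKM in the controls and rose to 289.7, 502.1 and 566.7 FPKM, with a log2 fold change of 2.02 (SE 0.26, edgeR adjusted p 0.000566). *Tuba1a* was at 70.37, 49.24 and 49.45 FPKM in the controls and at 137.9, 417.5 and 608.6 FPKM in the labelled knockouts, 1.90 (SE 0.51, adjusted p 0.0126), short of the study's threshold. Its groups did not overlap, and the lowest of the labelled knockouts was again number 1. The *Tuba1a* and *Tuba1b* proteins are 99.6% identical and their coding sequences 98.3%, and with their counts summed the pair was not past the thresholds, at a log2 fold change of 1.96. *Tuba1c*, the third isotype of that gene group, was at 89.2, 79.7 and 84.32 FPKM in the controls and at 181.2, 94.16 and 196.3 FPKM in the labelled knockouts. Its direction turned with the scaling, from 0.04 with TMM (SE 0.29) and 0.90 with total counts to -0.16 with median-ratio factors.

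**Figure D1:**
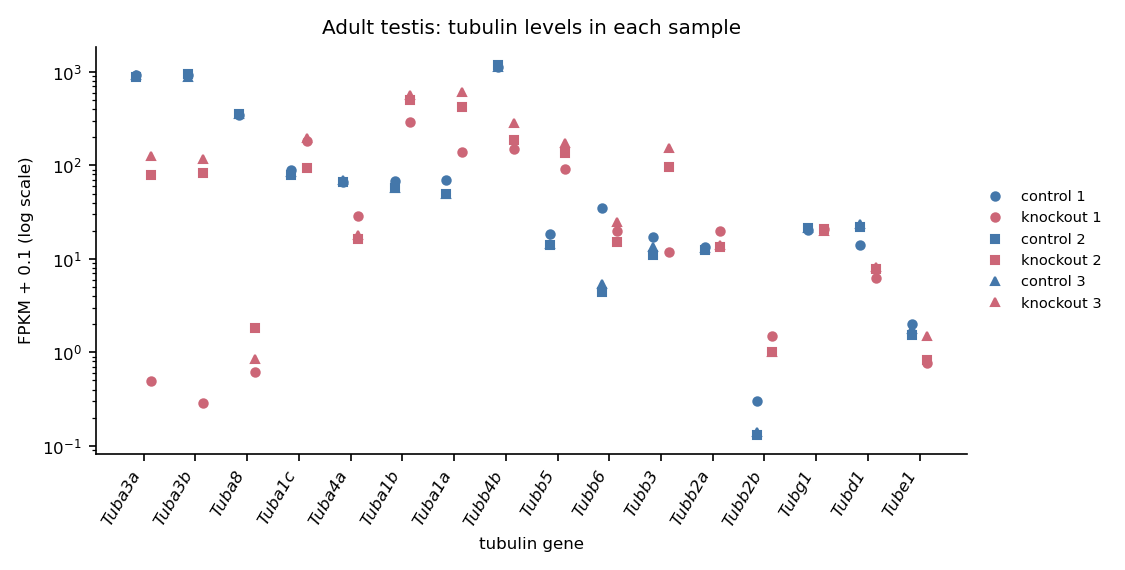
FPKM + 0.1 on a log axis for the 16 tubulins with a mean of at least 1 FPKM in either adult group, 1 symbol per sample, controls in blue and labelled knockouts in red. *Tuba3a*, *Tuba3b* and *Tuba8* lie at or above 343.2 FPKM in the controls and at or below 127 FPKM in the labelled knockouts, with labelled knockout 1 at 0.39 and 0.19 FPKM for *Tuba3a* and *Tuba3b*.

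Among beta-tubulins the adult controls held almost only *Tubb4b*, an isotype known from axonemes. It was at 1131, 1172 and 1134 FPKM in the controls and fell to 148.1, 184.7 and 283.8 FPKM, a log2 fold change of -3.35 (SE 0.30, edgeR adjusted p 0.000131). *Tubb5*, a broadly expressed isotype, was at 18.39, 14.14 and 14.48 FPKM in the controls and rose to 92.23, 136.5 and 173.7 FPKM, a log2 fold change of 2.23 (SE 0.24, adjusted p 0.000259). Every labelled knockout lay above every control for *Tubb5* and below every control for *Tubb4b*. *Tubb3*, an isotype of neurons that in testis is found in Sertoli cells, was at 17.09, 10.92 and 13.45 FPKM in the controls and at 11.76, 96.77 and 151.9 FPKM in labelled knockouts 1 to 3. Labelled knockout 1 was within the range of the controls and the other two were well above it, and the log2 fold change of 1.76 (SE 0.79, adjusted p 0.0809) became 2.40 and past the thresholds without that sample. *Sox9*, a defining Sertoli cell gene, was likewise low in labelled knockout 1, at 1.2, 9.86 and 12.65 FPKM in labelled knockouts 1 to 3 and between 1.37 and 2.34 FPKM in the controls. *Cldn11* was at 32.84, 226.6 and 293.4 FPKM and between 27.08 and 34.88 FPKM in the controls. These 2 were picked from the 12 Sertoli cell markers after their values were seen, and the sum of the list was above the controls in labelled knockout 1 too, at 2736 FPKM.

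The other beta-tubulins were low or depended on scaling. *Tubb2b* was at 0.2, 0.03 and 0.04 FPKM in the controls and at 1.39, 0.9 and 0.91 FPKM in the labelled knockouts, 2.75 (SE 0.62, edgeR adjusted p 0.0065). Without control 1, which held 5.44 counts of *Tubb2b*, the log2 fold change was 3.88. *Tubb2a*, whose protein is 99.6% identical to that of *Tubb2b*, was at 13.25, 12.31 and 13.07 FPKM in the controls and at 19.77, 13.26 and 14.05 FPKM in the labelled knockouts. Its fold change was -0.56 with TMM and 0.28 with total counts. *Tubb6* was at 35.08, 4.31 and 5.28 FPKM in the controls and at 19.97, 15.12 and 24.73 FPKM in the labelled knockouts. Control 1 lay above all other samples there, and the fold change of -0.42 (SE 0.81) became 1.18 without it. 

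Summed over the family, alpha-tubulin was at 2490, 2428 and 2417 FPKM in the controls and at 638.9, 1194 and 1633 FPKM in the labelled knockouts, and beta-tubulin at 1215, 1214 and 1180 FPKM against 293.4, 447.4 and 649.2 FPKM. On the FPKM scale every labelled knockout lay below every control for both sums. A share within a sample does not depend on the scaling between samples. *Tuba3a* made up 37.3% ± 1.20 (SD, n = 3) of alpha-tubulin in the controls and 4.82% ± 4.16 in the labelled knockouts, and *Tuba3b* 37.3% ± 1.28 and 4.69% ± 4.04. *Tuba8* made up 14.4% ± 0.505 and 0.0908% ± 0.0502. *Tuba1b* went from 2.50% ± 0.223 to 40.7% ± 5.45, *Tuba1a* from 2.30% ± 0.456 to 31.3% ± 8.47 and *Tuba1c* from 3.45% ± 0.154 to 16.1% ± 10.8. Among beta-tubulins the share of *Tubb4b* was 95.2% ± 1.89 in the controls and 45.2% ± 4.78 in the labelled knockouts, that of *Tubb5* 1.30% ± 0.186 and 29.6% ± 2.48, and that of *Tubb3* 1.15% ± 0.254 and 16.4% ± 10.7. For each of these 9 shares the groups did not overlap, and the exact permutation p (two-sided) was 0.1, also after Benjamini-Hochberg adjustment over the 9, which is the smallest value that 3 against 3 samples allow. Shares within a family have a fixed sum, so the fall of some raises others and the 9 are not separate results. The share of *Tuba1c* was higher although its log2 fold change with TMM was 0.04 (SE 0.29).

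**Figure D2:**
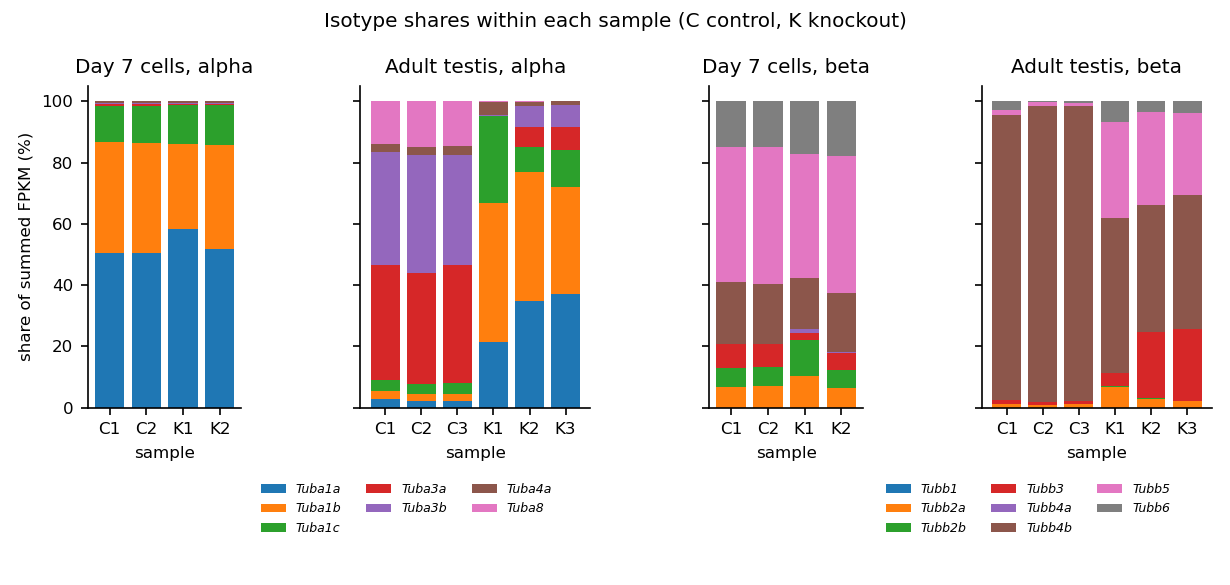
Share of each isotype in the summed FPKM of alpha-tubulins (left panels) and beta-tubulins (right panels), in percent, with 1 stacked bar per sample, C for controls and K for knockouts. The adult controls are mostly *Tuba3a*, *Tuba3b*, *Tuba8* and *Tubb4b*, and every other bar is mostly *Tuba1a*, *Tuba1b* and *Tuba1c* and, for beta-tubulin, a mix with 40.46% to 44.66% *Tubb5* at day 7 and 26.76% to 31.44% in the adult labelled knockouts. *Tubb4b* remains the largest beta-tubulin share in adult labelled knockouts 1 to 3, at 50.5%, 41.27% and 43.71%.

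Of the tubulins outside the dimer, *Tubg1*, the gamma-tubulin of the nucleating ring, was level on the FPKM scale, at 20.39, 21.32 and 21.48 FPKM in the controls and 21.03, 20.86 and 19.72 FPKM in the labelled knockouts. Its log2 fold change was -0.95 with TMM, -0.10 with total counts and -1.15 with median-ratio factors. It was past the thresholds with median-ratio factors and with DESeq2. *Tubd1* and *Tube1*, the delta- and epsilon-tubulins of centriole triplets, were lower. *Tubd1* was at 13.86, 21.73 and 23.43 FPKM in the controls and fell to 6.19, 7.72 and 8.01 FPKM, -2.32 (SE 0.24, edgeR adjusted p 0.000214), and it was not past the thresholds with total-count scaling. *Tube1* was at 1.91, 1.42 and 1.68 FPKM in the controls and at 0.66, 0.72 and 1.4 FPKM in the labelled knockouts, -1.72 (SE 0.34, adjusted p 0.00354). *Tubg2* was at or below 1.39 FPKM in every adult sample and its groups overlapped.

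Of the kinesins, 38 genes summed to between 1031 and 1123 FPKM in the adult controls and to 139.4, 208 and 234.1 FPKM in the labelled knockouts. *Kif2b*, *Kif2c* and *Kif9* were the 3 most abundant in the controls. *Kif2b* (chr11:91575286-91577555), a microtubule depolymerase of the Kif2 group, was at 400.9, 382.4 and 402.2 FPKM in the controls, and at 0, 6.66 and 6.23 FPKM in the labelled knockouts. Labelled knockout 1 held 0 counts of *Kif2b*, which allows up to 3, and the others 217 and 194. Its log2 fold change of -7.41 (SE 1.70, edgeR adjusted p 0.0067) depends on that library and was not past the thresholds, and it was -6.69 and past them without it. *Kif2a*, the most widely expressed of that group, was at 56.19, 52.55 and 60.34 FPKM in the controls and fell to 8.06, 12.3 and 13.08 FPKM, -3.13 (SE 0.19, adjusted p 4.24e-05).

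All 11 spindle and cytokinesis kinesins had a negative fold change in adult testis, with a median of -2.90, and 10 were lower at an adjusted p under 0.05, beside 40.6% of all genes. Only 2 of the 11, *Kif2c* and *Kif20b*, were past the thresholds with all samples, a smaller share than the 23.7% of all genes. *Kif2c*, the depolymerase at centromeres, was at 164.1, 152.5 and 151.9 FPKM in the controls and fell to 0.79, 3.78 and 5.21 FPKM, -6.49 (SE 0.74, edgeR adjusted p 0.000326). *Kif20b*, which acts in cytokinesis, was at 7, 6.27 and 8.87 FPKM in the controls and fell to 1.23, 3 and 3.24 FPKM, -2.44 (SE 0.36, adjusted p 0.000971). It was not past the thresholds with total-count scaling. The one without a call at 0.05 was the chromokinesin *Kif4*, at 1.49, 1.1 and 1.11 FPKM in the controls and at 0.07, 0.64 and 1.74 FPKM in the labelled knockouts. The other 8, among them *Kif11*, the motor that pushes spindle poles apart, and *Kif23*, a subunit of centralspindlin, had log2 fold changes between -1.90 and -4.17. Labelled knockout 1 had the lowest FPKM of the 3 for 11 of 11, as it did for 35 of all 51 members and 53.4% of all genes tested. The summed level was 5.64, 27.78 and 42.59 FPKM in labelled knockouts 1 to 3 against 229.4 to 249.4 FPKM in the controls. Markers of cycling cells moved beside them, with a summed FPKM of 12.7, 80.49 and 120.5 against 415.2 to 457.4. None of these 12 markers was past the thresholds and 8 were lower at an adjusted p under 0.05.

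The promoters of the members were searched for 4 short motifs, and a link between any motif and the values was not tested. TTTGAA, or TTCAAA on the other strand, is the core of the cell cycle genes homology region, an element of genes transcribed late in the cell cycle. It was in 9 of 10 spindle and cytokinesis kinesins with an entry, with *Kif18a* as the exception, in 13 of all 47 tubulins and kinesins with one, and in 18.1% of 27025 genes. These counts take the first promoter that RefSeq lists for a gene, and the second of *Kif1a* holds the motif as well. The windows below give the match nearest the start with 12 bases on each side, from RefSeq on GRCm38.p6, 5′ to 3′ on the gene's strand and with the match in capitals. They are shown because the motif was in more of these promoters than in those of any other role group. The position of the first capital is counted from the start that RefSeq's promoter entry gives, with 1 as its first base and -1 as the base before. That start is the first base of the gene or up to 47 bases inside it for 7 of the 9, but lies 1547 bases inside *Kif14* and 3852 bases inside *Kif2c* by the gene coordinates used here.
Kif11, chr19:37376351-37376380, plus strand, position -19: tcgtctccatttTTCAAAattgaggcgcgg
Kif14, chr1:136467608-136467637, plus strand, position -228: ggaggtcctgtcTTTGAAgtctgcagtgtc
Kif15, chr9:122951050-122951079, plus strand, position -19: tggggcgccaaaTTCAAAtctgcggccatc
Kif18b, chr11:102925104-102925133, minus strand, position 4: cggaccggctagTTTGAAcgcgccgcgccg
Kif20b, chr19:34922353-34922382, plus strand, position 8: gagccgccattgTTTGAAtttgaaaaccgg
Kif22, chr7:127042420-127042449, minus strand, position -17: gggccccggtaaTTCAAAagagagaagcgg
Kif23, chr9:61946780-61946809, minus strand, position 3: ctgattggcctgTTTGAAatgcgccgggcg
Kif2c, chr4:117178858-117178887, minus strand, position -103: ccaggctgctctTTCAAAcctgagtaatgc
Kif4, chrX:100626072-100626101, plus strand, position 20: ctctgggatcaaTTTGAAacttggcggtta
For 7 of the 9 the match lies within 20 bases of that start. For *Kif2c* and *Kif14* it lies further before it, within the gene. A match is a description of these letters and not a site. CCAAT was in 6 of the same 10 promoters, TGACG in 5 and TGACGTCA in 1, beside 37.9%, 21.0% and 1.88% of all genes.

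**Figure D3:**
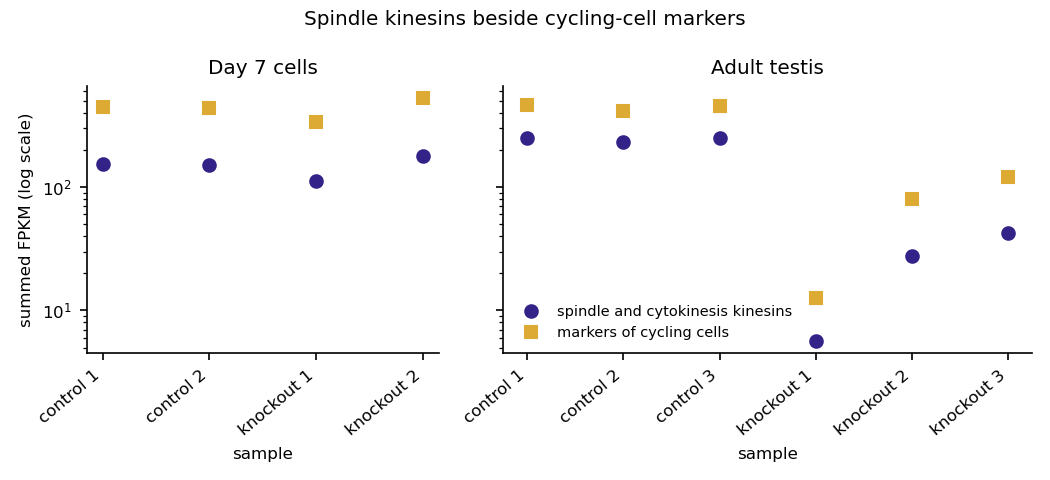
Summed FPKM of the 11 spindle and cytokinesis kinesins and of 12 markers of cycling cells in each sample, on a log axis. Both sums are low together in adult labelled knockout 1 (5.64 and 12.7) and, at day 7, knockout 1 lies below and knockout 2 above both controls.

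The kinesins of cilium, flagellum and hedgehog signalling held the most falls, 6 of 10 past the thresholds and 9 lower at an adjusted p under 0.05, beside 23.7% and 40.6% of all genes. *Kif17*, a homodimeric motor of the kinesin-2 class, was at 64.51, 66.71 and 74.49 FPKM in the controls and fell to 0.3, 1.56 and 1.89 FPKM, -6.70 (SE 0.75, edgeR adjusted p 0.000308). *Kif9*, a motor of the sperm axoneme, was at 116.4, 119.8 and 130.1 FPKM and fell to 1.22, 6.95 and 9.44 FPKM, -5.28 (SE 0.76, adjusted p 0.000893), and it was not past the thresholds with total-count scaling. *Kif27* was at 79.22, 74.99 and 88.3 FPKM and fell to 1.92, 4.51 and 4.24 FPKM, -5.23 (SE 0.32). *Kif19a*, a depolymerase of ciliary tips, was at 5.37, 4.79 and 4.98 FPKM and fell to 0.97, 0.61 and 0.86 FPKM, -3.47 (SE 0.23). For these 4 genes every labelled knockout lay far below every control. *Kif3a* and *Kif3b*, the motor subunits of intraflagellar transport, fell less, with log2 fold changes of -2.50 (SE 0.17) and -2.42 (SE 0.18). The exception in direction was *Kif3c*, their alternative partner, at 2.59, 2.46 and 2.51 FPKM in the controls and 6.47, 7.02 and 7.37 FPKM in the labelled knockouts, 0.60 (SE 0.10, adjusted p 0.00164). *Kif6*, *Kif7* and *Kif24* had log2 fold changes of -2.80, -1.51 and -2.57 and were not past the thresholds. Each of them was past with DESeq2 and without labelled knockout 1, and *Kif7* and *Kif24* also with median-ratio factors.

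Of the 11 cargo transport kinesins, 2 rose and 2 fell past the thresholds, beside 23.0% and 23.7% of all genes. At an adjusted p under 0.05, 7 were higher and 4 lower, beside 40.9% and 40.6% of all genes, with a median of 0.86 and summed levels of 96.8, 116.2 and 118.7 FPKM in the labelled knockouts against 32.65 to 37.92 FPKM in the controls. *Kif1c*, a motor for vesicles, was at 1.52, 0.85 and 1.25 FPKM in the controls and rose to 23.49, 24.07 and 16.34 FPKM, 3.54 (SE 0.23, edgeR adjusted p 5.19e-05). *Kif5b*, the widely expressed heavy chain of conventional kinesin, was at 3.76, 2.76 and 3.59 FPKM and rose to 22.87, 34.79 and 38.71 FPKM, 2.39 (SE 0.21, adjusted p 0.000122). *Kif21b* was at 7.45, 5.69 and 6.76 FPKM in the controls and fell to 1.25, 1.32 and 1.07 FPKM, -3.30 (SE 0.17, adjusted p 3.08e-05). *Kif5c*, another heavy chain, was past the thresholds at -1.15 with TMM, but its FPKM values overlapped, at 6.03, 4.97 and 5.52 against 3.82, 4.14 and 5.61, and with total counts it was at -0.28. *Kif16b* and *Kif1a* likewise had overlapping FPKM, with log2 fold changes of -0.78 and -0.76 with TMM and of 0.07 and 0.10 with total counts. *Kif13a*, *Kif13b*, *Kif1b*, *Kif5a* and *Kif21a* had log2 fold changes between 0.82 and 1.63 and adjusted p-values between 0.00138 and 0.0129, and their groups did not overlap on either scale. For *Kif21a* labelled knockout 1 was again the lowest, at 6.32 FPKM beside 15.97 and 23.14.

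**Figure D4:**
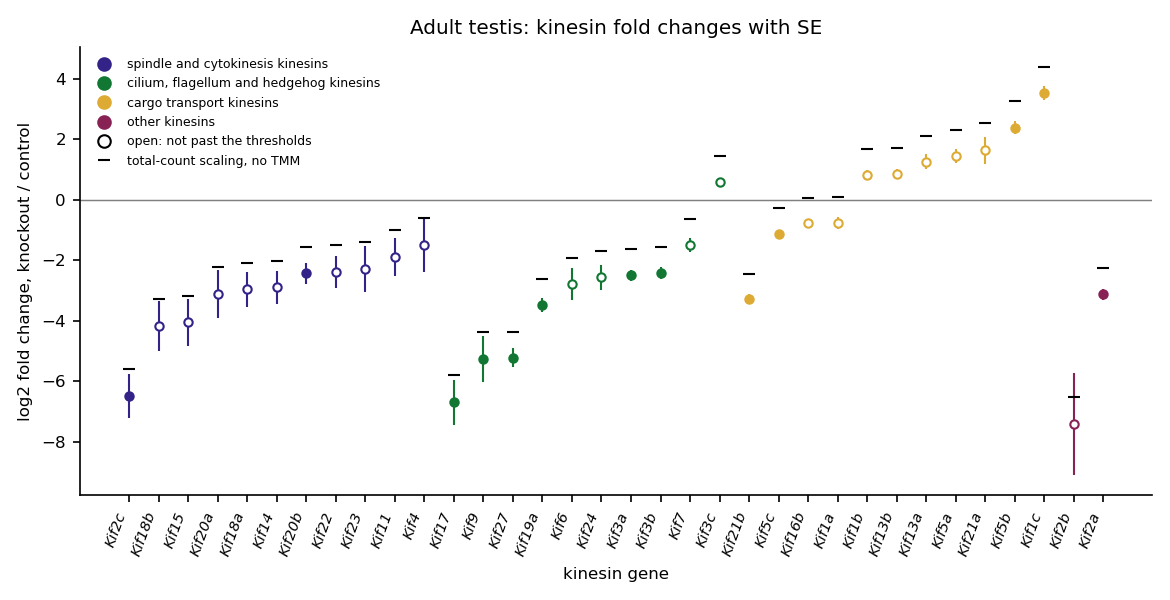
Log2 fold changes of the 34 kinesins tested in adult testis, labelled knockout over control, with TMM scaling (points with SE bars, filled where past the thresholds) and with total-count scaling (black dashes), coloured by role. All spindle kinesins and all but *Kif3c* of the cilium and flagellum group lie below 0 on both scales, and *Kif1a* and *Kif16b* change sides.

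Of the genes that work with tubulins and kinesins in adult testis, 5 lists were looked at, to be read beside the 23.7% of all genes that fell and the 23.0% that rose. The modifying enzymes of tubulin had the most falls, 17 of 28, with 2 rises and a median of -4.19. The extremes were *Ttll10*, a polyglycylase, at 217.7 to 240.2 FPKM in the controls and 0.75 to 2.44 FPKM in the labelled knockouts (-7.93, SE 0.51), and *Ttl*, the tyrosine ligase, at 0.21 to 0.24 and 2.27 to 4.54 FPKM (a log2 fold change of 3, SE 0.38). Of 10 kinesin partners and kinesins with other symbols, 2 fell and none rose past the thresholds. They were *Kifap3*, the non-motor subunit of the Kif3a and Kif3b complex, from 112.1, 114.6 and 130.3 to 8.2, 9.13 and 9.81 FPKM (-4.54, SE 0.18), and the kinesin light chain *Klc3* (-4.60, SE 0.27). Of 17 genes listed for tubulin folding and nucleation 4 fell, with *Mzt2* the lowest at -3.40 (SE 0.19). The 1 that rose was *Tbck*, at 1.55 (SE 0.19), which is not a tubulin folding cofactor despite its symbol. The low *Tubal3*, at 0.64, 0.59 and 1 FPKM in the controls and 0 in the labelled knockouts, was not past the thresholds. Of 27 microtubule-associated and severing proteins tested, 9 fell and 4 rose, from *Katnal2* at -5.01 (SE 0.72) to *Mapre2* at 2.07 (SE 0.24). Of 22 genes of cytoplasmic dynein and dynactin tested, 10 fell and 4 rose, and the light chains *Dynlrb2* and *Dynlrb1* were the extremes, at -5.42 (SE 0.80) and 2.17 (SE 0.17). The last 2 lists had medians of -1.10 and -0.96 with TMM, and of -0.20 and -0.10 with total counts beside 0.87 for all genes.

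In day 7 Sertoli cells no tubulin or kinesin was past the thresholds, 0 of 49 tested, beside 0% of all 12880 genes. At these same thresholds the study itself reports many differentially expressed genes in day 7 Sertoli cells, with *Cldn11* among the lower ones. It describes more individuals per group and its own processing. The 0 here is the outcome of edgeR on 2 samples per group. The smallest adjusted p among the 49 was 0.143 and among all genes 0.0961. At an unadjusted p under 0.05 there were 2 of 49, 4.08% beside 15.5% of all genes, *Tubb4a* and *Kif1a*. With DESeq2 these 2 members alone were past the thresholds, 4.08% beside 0.978% of all genes, and with limma, at either pseudocount, 0 were. On TMM-scaled counts the groups did not overlap with the knockouts higher for 10 members, 20.4% beside 24.8% of all genes, and with the knockouts lower for 6, 12.2% beside 26.1%. The median log2 fold change of the 49 was -0.02. 

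Markers of cell types also differed in the day 7 knockouts, where a change in cells and a change in RNA per cell again cannot be told apart. All 7 peritubular myoid markers and all 6 stromal markers were higher in both knockouts, with summed levels of 4115 and 4291 FPKM against 2515 and 2376, and of 3920 and 3306 FPKM against 2152 and 2236. Of 11 Sertoli cell markers tested, 9 were lower in both, and the sum of all 12 was 862.1 and 1253 FPKM in knockouts 1 and 2 against 1707 and 1562. Of 10 spermatogonial markers 8 were lower in both, with sums of 145.8 and 141.3 FPKM against 210.3 and 203.2, as were all 4 spermatocyte markers tested, and 3 of 4 Leydig cell markers tested were higher. Spermatid markers were at or below a sum of 2.06 FPKM in every sample. Their part in the values below was not tested.

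*Tubb4a*, a beta-tubulin of brain and axonemes, had the largest difference at day 7. It was at 1.09 and 1.22 FPKM in the controls and at 21.34 and 7.63 FPKM in the knockouts, a log2 fold change of 3.69 (SE 0.60, edgeR p 0.00239, adjusted p 0.143). Both knockouts lay far above both controls and differed from each other. With either knockout left out it was past the thresholds, but that leaves 1 knockout library, which is assumed to vary as little as the 2 controls do. *Kif1a*, a fast vesicle motor of axons, was at 6.88 and 5.85 FPKM in the controls and at 17.83 and 10.97 FPKM in the knockouts, 1.22 (SE 0.26, edgeR p 0.00734, adjusted p 0.188). Knockout 1 was again the higher of both.

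*Tubb3* was at 163.6 and 156.9 FPKM in the controls and at 40.41 and 118 FPKM in the knockouts, -0.98 (SE 0.50, edgeR adjusted p 0.423). Without knockout 2, *Tubb3*, *Tuba3a*, *Tubb4a* and *Kif1a* were past the thresholds, as were 650 of all genes beside 0 with all samples. There the spread comes from the 2 controls alone. Both knockouts were below both controls, with knockout 1 the lower. The Sertoli cell marker *Cldn11* was at 228.9 and 213.7 FPKM in the controls and at 14.01 and 150.3 FPKM in knockouts 1 and 2, and *Sox9* at 41.84, 39.43, 10.19 and 25.66 FPKM. These were picked from the list of 12 after their values were seen, and others differed, with *Rhox5* higher in both knockouts, *Fshr* overlapping and *Amh* lower in knockout 2 (3.33 FPKM) than in knockout 1 (3.87 FPKM). *Tube1* was at 2.25 and 2.34 FPKM in the controls and at 1.35 and 1.77 FPKM in the knockouts, -0.52 (SE 0.22). *Kif6* was at 1.28 and 0.95 against 0.81 and 0.7 FPKM, -0.49 (SE 0.27). *Kif1c* was at 36.24 and 35.73 against 40.31 and 40.56 FPKM, 0.19 (SE 0.08), and *Kif7* at 2.45 and 2.67 against 3.08 and 2.7 FPKM, 0.27 (SE 0.14). *Tubb2b* was at 132 and 132.3 against 200.6 and 133.9 FPKM, 0.38 (SE 0.21), with the difference almost all in knockout 1. The groups did not overlap for these 5 genes, and none had an adjusted p under 0.357.

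**Figure D5:**
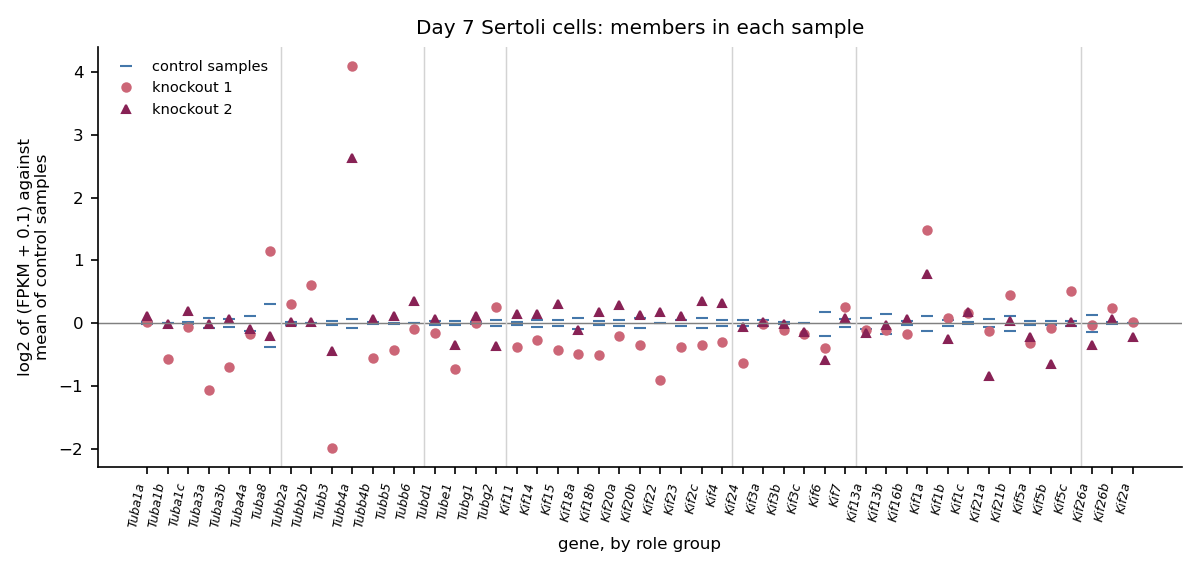
Log2 of FPKM + 0.1 in each day 7 sample against the mean of the 2 controls, for the 49 tubulins and kinesins tested, with vertical lines between role groups. Controls are blue dashes near 0, *Tubb4a* and *Kif1a* are above in both knockouts and *Tubb3* below, and the spindle kinesins have knockout 1 (circle) below 0 and knockout 2 (triangle) mostly above.

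The abundant tubulins of day 7 cells were *Tuba1a*, *Tuba1b*, *Tubb5*, *Tubb4b*, *Tuba1c* and *Tubb6*, in that order of control means. *Tuba1a* was at 1640 and 1669 FPKM in the controls and 1683 and 1792 FPKM in the knockouts, and *Tuba1b* at 1185 and 1188 against 800 and 1176 FPKM. *Tubb5* was at 923.5 and 933.4 against 690.4 and 1002 FPKM, and *Tubb4b* at 418.7 and 408.6 against 282.5 and 434.8 FPKM. *Tuba1c* was at 387.7 and 397.8 against 374.6 and 448.3 FPKM, and *Tubb6* at 315.5 and 314.2 against 294.4 and 401.7 FPKM. The controls lay close together and knockout 1 was the lower of both knockouts for each of these 6. Their log2 fold changes were from -0.23 to 0.18 with edgeR adjusted p-values of 0.529 or more, and on TMM-scaled counts the groups overlapped for all but *Tuba1a*. *Tubb2a* was at 140.8 and 145.6 against 176.8 and 145.3 FPKM. The testis isotypes were low, with *Tuba3a* at 16, 17.93, 8.02 and 16.81 FPKM and *Tuba3b* at 12.77, 14.03, 8.23 and 14.04 FPKM over controls and knockouts, and knockout 1 was the lowest for both. *Tuba4a* was at 15.06, 17.78, 14.57 and 15.37 FPKM. *Tubg1* was at 46.57, 45.29, 45.99 and 49.43 FPKM and *Tubd1* at 5.02, 5.25, 4.6 and 5.35 FPKM, and *Tubg2* at 1.37, 1.28, 1.6 and 1 FPKM, all with groups that overlapped in FPKM.

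As shares, *Tuba1a* was 50.4% ± 0.0977 (SD, n = 2) of alpha-tubulin in the day 7 controls and 55.0% ± 4.60 in the knockouts, and *Tuba1b* 36.2% ± 0.309 and 30.8% ± 4.44. *Tubb3* was 7.65% ± 0.218 and 3.82% ± 2.05 of beta-tubulin and *Tubb6* 15.04% ± 0.0274 and 17.6% ± 0.463. *Tubb4b* was 19.8% ± 0.321 and 17.97% ± 2.001, and *Tuba1c* 11.97% ± 0.0939 and 12.95% ± 0.0142 of alpha-tubulin. The groups did not overlap for these 6 shares, each with an exact two-sided permutation p of 0.3333, the smallest that 2 against 2 samples allow, and 0.5 after Benjamini-Hochberg adjustment over the 9 shares tested. Here too the shares of a family have a fixed sum and are not separate results. *Tubb5*, at 44.3% ± 0.379 and 42.6% ± 2.97, *Tubb2a*, at 6.84% ± 0.167 and 8.42% ± 2.74, and *Tubb2b*, at 6.31% ± 0.0160 and 8.86% ± 4.09, overlapped.

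The spindle kinesins did not separate the day 7 groups. Knockout 1 lay below both controls for 11 of 11 of them, and knockout 2 above both controls for 10 of 11, with *Kif18a* as the exception. Over all 49 members tested these counts were 31 and 25, and over all genes tested the shares were 51.3% and 36.1%. The summed level was 152.2 and 151.9 FPKM in the controls and 110.8 and 176.4 FPKM in knockouts 1 and 2. Markers of cycling cells again lay beside them, at a summed 445.4 and 432.8 FPKM in the controls and 333.2 and 523.4 FPKM in the knockouts. The fold changes ranged from -0.26 for *Kif18a* to 0.11 for *Kif20a*, the largest level being that of *Kif22*, a chromokinesin, at 37.12 and 36.83 against 19.65 and 41.7 FPKM. The median of the 11 was -0.05 with all samples, 0.21 without knockout 1 and -0.34 without knockout 2. Of the other day 7 kinesins, the cargo group had fold changes from -0.42 for *Kif21a* to 1.22 for *Kif1a* and the cilium group from -0.49 for *Kif6* to 0.27 for *Kif7*. Among the partner lists at day 7, no gene was past the thresholds and 15 of 94 tested, 16.0% beside 15.5% of all genes, had an unadjusted p under 0.05, the smallest for the light chain *Klc4*, at 11.1 and 10.83 against 7.04 and 7.05 FPKM (-0.59, edgeR p 0.00378).

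The members below the filter at day 7 were 7 kinesins, *Kif2b*, *Kif9*, *Kif12*, *Kif17*, *Kif19a*, *Kif27* and *Kif28*, at no more than 0.54 FPKM in any sample of cultured Sertoli cells. *Kif2b*, *Kif9*, *Kif17*, *Kif19a* and *Kif27* were between 4.79 and 402.2 FPKM in adult control testis and at or below 9.44 FPKM in the labelled knockouts. The 2 tables were made separately, so these levels are set beside each other without a test. Both tables tested 46 members. For 4 of them the groups did not overlap on FPKM or on TMM-scaled counts and the direction was opposite, with *Kif3c*, *Kif5a* and *Kif21a* lower in day 7 knockouts and higher in adult labelled knockouts, and *Kif7* the reverse. That is 8.70% of the 46, beside 14.5% of all 12378 genes tested in both tables.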

How the data were processed

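Per the labels and the study's methods, the authors enriched mRNA with oligo(dT), sequenced it on BGISEQ, aligned it with HISAT (GRCm38.p6) and Bowtie2, and quantified genes by RSEM (versions not given in the sources used here). The study's methods describe the Sertoli cells, and the adult table is taken to be alike from its columns. The authors deposited estimated counts, FPKM and TPM; the deposited TPM was not used, nor were 20 columns without any value. The study gives 3 individuals per group at day 7, of which 2 samples per group are analysed here. Day 7 follows the titles, since the growth protocol speaks of adult tissue throughout.

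Estimated counts were rounded and tested by edgeR 4.0.16 (quasi-likelihood, TMM, Benjamini-Hochberg over all genes) within each table, for genes reaching 0.5 FPKM in a number of samples equal to the group size (12880 of 17816 genes at day 7, 15919 of 20007 in adult testis). The SE was derived from the log2 fold change and its F statistic. The fit was also run on simulated counts in which few genes changed, equally up and down. That setting is unlike the adult table, so it does not test the adult scaling. Shares used exact permutation tests. Alternatives were total-count and median-ratio scaling, other filters, DESeq2 1.42.0, limma 3.58.1 on log2(FPKM + 0.1) or log2(FPKM + 1), a replicate block, each sample left out, and members at least 99% identical summed. Fold changes of limma understate low genes. No 2 samples of a group agreed within sampling noise, with a chi-square per degree of freedom of 2.65 or more. Overlap was judged on TMM-scaled counts or FPKM, as stated.

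The members and gene lists were chosen with earlier results of these data known. Named were tubulins of at least 1 mean FPKM in a group, in adult testis up to 4 kinesins per role with the largest change past the thresholds and without overlap plus the most abundant, at day 7 the 8 members of smallest p, and the extremes of the other lists. Further members, *Dmrt1*, *Sox9*, *Cldn11*, *Rhox5*, *Fshr*, *Amh*, *Tubal3* and *Klc4* were named after their values were seen. Promoters are RefSeq's (GRCm38.p6), with entries for 47 of 57 members used. Other tools were R 4.3.3, Python 3.11.15, pandas 2.3.3 and scipy 1.17.1.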

Additional observations from a re-analysis of the deposited data

Results flagged for a closer look

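For 4 kinesins every knockout sample lay on one side of the controls at day 7 and on the other side in adult testis. The log2 fold change of *Kif21a* was 1.63 in adult testis and -0.42 at day 7. That of *Kif3c* was 0.60 in adult testis and -0.12 at day 7, and that of *Kif5a* was 1.46 and -0.26. That of *Kif7* was -1.51 in adult testis and 0.27 at day 7. The same held for 14.5% of all genes tested in both tables, beside 8.70% of the members. The difference between the tables was not tested for any of them, since they hold different tissues and were made separately. The smallest edgeR adjusted p of the 4 at day 7 was 0.434, for *Kif7*. Groups of 2 or 3 samples are too small to test for a single sample that stands apart.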

How the results depend on the processing

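The number of members past the thresholds at day 7, 0, was 2 with DESeq2 and 0 to 4 with 1 sample left out. It stayed at 0 with both other scalings, both other filters, both limma fits and an adjusted p under 0.05 at any fold. In adult testis the 4 that rose became 9 with total-count scaling and with both limma fits, 12 at an adjusted p under 0.05 and between 1 and 9 with 1 sample left out. The 15 that fell became 11 with total-count scaling, where *Kif20b*, *Kif5c*, *Kif9* and *Tubd1* were lost, 11 and 15 with limma at the lower and higher pseudocount, 29 with DESeq2, 34 at an adjusted p under 0.05 and between 7 and 28 with 1 sample left out. Both adult highs came without labelled knockout 1. With median-ratio scaling 22 members were past the thresholds, the 19 of the main fit and also *Kif7*, *Kif24* and *Tubg1*, which were lower. With DESeq2 *Kif5a* joined those that rose. With the replicate block 0 rose and 0 fell past the thresholds, while 42 of the 46 members at an adjusted p under 0.05 stayed there, and the day 7 count stayed at 0. The numbers do not pair the samples, as the correlations of same-numbered deviations were between 0.0062 and 0.032 in both tables. The cause of these shifts was not tested. Of all genes, 7432 were past the thresholds in adult testis with all samples, 10256 with DESeq2, 0 with the block, 10301 without labelled knockout 1 and 2695 without control 2, and at day 7 0, 126 with DESeq2 and 650 without knockout 2. The split of all adult calls was 3660 higher and 3772 lower with TMM, 5836 and 2252 with total counts and 3173 and 4186 with median-ratio factors.

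Directions turned for small log2 fold changes. At day 7, with 1 sample left out, *Tuba1b* ranged from -0.521 to 0.0186, *Tuba1c* from -0.0221 to 0.223, *Tuba3a* from -1.029 to 0.0166, *Tuba3b* from -0.658 to 0.101, *Tuba4a* from -0.205 to 0.0291, *Tubb4b* from -0.503 to 0.103, *Tubb5* from -0.382 to 0.143, *Tubb6* from -0.0502 to 0.383, *Tubd1* from -0.0922 to 0.0618 and *Tubg2* from -0.382 to 0.331. The turns came without a knockout, except for *Tuba4a* and one of *Tubg2* (-0.0473), which came without control 2. *Tubg2* was also at -0.0218 with total counts, -0.0587 and -0.0277 with limma at the lower and higher pseudocount, and -0.0107 with the replicate block. *Tuba1a* and *Tuba1b* summed gave -0.0193. Those day 7 ranges cover tubulins only, and kinesins turned too. Among them, *Kif22* went from -0.232 to 0.206 without knockout 1 and *Kif20a* from 0.107 to -0.158 without knockout 2. Share differences at day 7, in percentage points and with 1 sample left out, ranged from -0.360 to 3.52 for *Tubb2a*, from -0.344 to 5.45 for *Tubb2b* and from -3.88 to 0.314 for *Tubb5*. In adult testis *Tuba1c* was at -0.158 with median-ratio scaling and with DESeq2, at -0.0273 with the block and from -0.0444 to 0.307 with 1 sample left out. *Tubb2a* was at 0.284 with total counts and at 0.261 and 0.247 with limma. *Tubb6* was at 0.421 with total counts, 1.06 and 0.951 with limma, 0.243 with the block and from -0.845 to 1.18 with 1 sample left out. *Tubb2a* and *Tubb2b* summed gave -0.458. No adult share changed direction under the alternatives run. Samples of a group differed by more than counting noise, and their number limits the precision; what greater depth would change was not tested.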
